A study of Mus musculus with 12 samples.

Results

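The genes described here are 46 type I interferon response genes, taken by name from the 48663 gene rows of the count table. The list was made of genes that cells are known to switch on after type I interferon, with Stat2 included, and all 46 were found in the table. RNA sequencing measured them in T cells sorted from mice, in 4 groups with 3 libraries each. All mice were of the C57BL/6 strain and carried floxed alleles of Lrf (Zbtb7a), which encodes the zinc finger transcription factor LRF. KO mice also carried Cd4-Cre, a recombinase driven by Cd4 control elements and so active in developing T cells, and control mice did not.

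The KO spleen group was CD8αα T cells, sorted as CD45+ TCRβ+ cells with CD8α and without CD4 or CD8β, and placed in the spleen by title and source. Control IELs had the same sort and were intraepithelial lymphocytes, the T cells of the gut lining. KO IELp and control IELp were thymic precursors of these lymphocytes, sorted as TCRβ+ cells without CD4, CD8α or CD44 and with CD122, H-2Kb and high CD5 and PD-1. The sources used here give no age, no treatment, no floxed exons and no statement that replicates came from separate animals, so p-values reflect the spread among the libraries alone, and some of that spread may be technical. KO IELs and control spleen cells are not analysed here, so genotype alone differed only between KO and control IELp.

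Type I interferons bind the receptor IFNAR, which acts through the kinases JAK1 and TYK2 to phosphorylate STAT2 and other proteins. STAT2 and IRF9 are parts of the complex ISGF3, which binds interferon-stimulated response elements in the promoters of its targets. The products bind or degrade viral RNA, sense nucleic acid, modify proteins with ISG15 or limit the signal itself, and in thymocytes such genes are also known to be expressed at the last steps of maturation.

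The libraries held 13432598 to 19947734 counts in genes, and levels are given as CPM, each gene's counts scaled by this total. Zbtb7a had 50.8, 43.8 and 42.0 CPM in KO IELp, against 77.0, 68.5 and 80.7 CPM in control IELp (log2 fold change -0.71, SE 0.10, edgeR adjusted p = 0.000156). It had 61.3 ± 2.13 CPM in KO spleen cells and 111 ± 8.91 CPM in control IELs (SD, n = 3 each), so transcript remained in the KO groups. All 12 T cell markers looked at were detected in each group. Control IEL replicate 3 stood apart from the other control IEL libraries, with a chi-square per degree of freedom of 13 and 18.2 against them, where other replicate pairs gave 4.3 to 8.34. Bulk RNA cannot tell fewer cells of a type from less RNA per cell.

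Loss of LRF was accompanied by lower interferon response genes in IELp. Of 43 members tested, 27 fell and 0 rose in KO IELp at an adjusted p under 0.05 (edgeR quasi-likelihood test with Benjamini-Hochberg adjustment over all 14629 genes tested). Among all genes tested, 6.58% were lower and 6.48% were higher, 13.1% in all. No member was higher in DESeq2 or at an unadjusted p under 0.05 in edgeR, where 33 were lower. The median log2 fold change of the members was -0.54, against -0.01 over all genes tested. In 32 of the 43 every KO IELp library lay below every control IELp library, as in 16.8% of all genes. Averaged over the 46 members, log2(CPM + 1) was 4.32, 4.35 and 4.46 in KO IELp libraries, against 4.99, 5.00 and 4.79 in control IELp libraries.

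**Figure D1:**
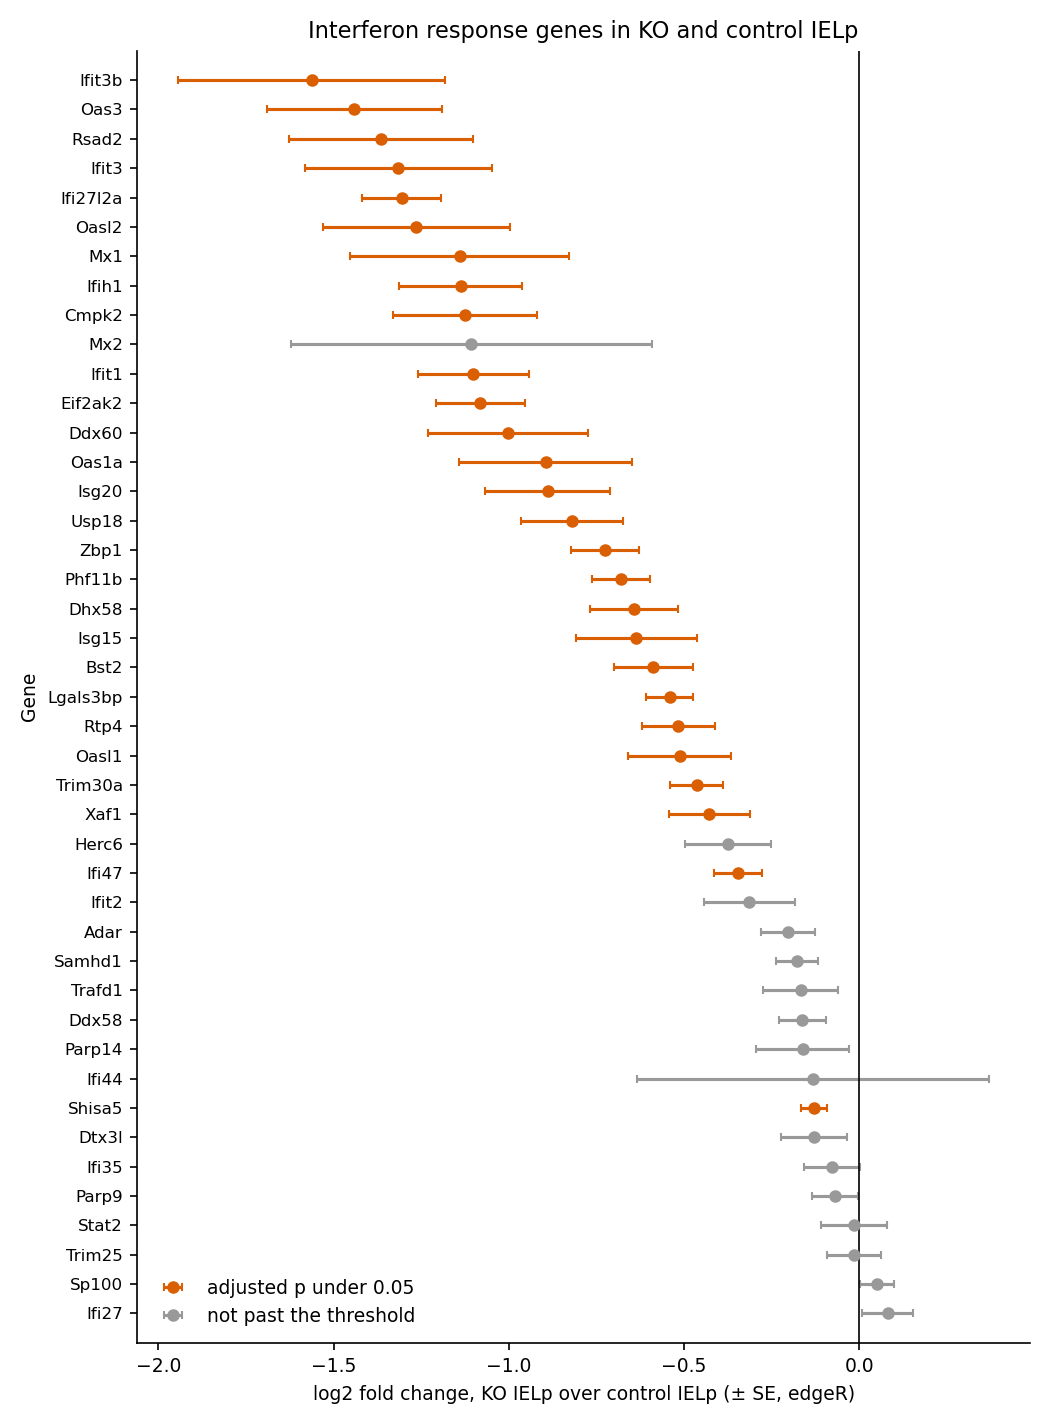
Log2 fold change of each tested member in KO IELp over control IELp from edgeR, with bars of 1 SE, from 3 libraries in each group. Of 43 members, 27 fell and 41 had a negative fold change.

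Of 7 genes for proteins that bind RNA or stop translation, 5 fell in KO IELp. Ifit1, which binds viral RNA that lacks a host cap, had 22.6, 17.9 and 23.5 CPM in KO IELp, against 50.6, 54.9 and 34.0 CPM in control IELp (log2 fold change -1.10, SE 0.16, edgeR adjusted p = 0.000242). Eif2ak2 encodes PKR, the kinase that halts translation on double-stranded RNA, and had 12.9, 10.7 and 12.8 CPM in KO IELp, against 24.7, 28.5 and 24.8 CPM in control IELp (log2 fold change -1.08, SE 0.13, edgeR adjusted p = 3.99e-05). Zbp1, a sensor of Z-form nucleic acid that can start cell death, had 37.3, 33.6 and 35.2 CPM in KO IELp, against 60.5, 64.7 and 52.7 CPM in control IELp (log2 fold change -0.73, SE 0.10, edgeR adjusted p = 0.000134). In all 3 genes each KO IELp library was below each control IELp library. Ifit1 lies with Ifit2, Ifit3 and Ifit3b on chromosome 19, where Ifit2 starts at 34550694 and Ifit1 ends at 34650009 (mm10). Ifit3, a partner of Ifit1, fell by 1.32 on the log2 scale (edgeR adjusted p = 0.00403), and Ifit3b gave -1.56 (edgeR adjusted p = 0.0135). Of the 76-base stretches in Ifit3 exons, 40.7% also occur in Ifit3b, so their counts may not be separate. Ifit2 gave -0.31 (edgeR adjusted p = 0.137) and Adar, an RNA editor, -0.20 (edgeR adjusted p = 0.105), and neither passed the test.

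Several enzymes of the OAS family make the second messenger that activates RNase L. All 4 tested OAS family genes fell. Oas3, which responds to long double-stranded RNA, had 3.43, 6.80 and 4.11 CPM in KO IELp, against 11.7, 17.5 and 10.3 CPM in control IELp (log2 fold change -1.44, SE 0.25, edgeR adjusted p = 0.00127). The groups did not overlap, and the control libraries were themselves spread. Log2 fold changes were -0.90 for Oas1a, -0.51 for Oasl1 and -1.26 for Oasl2. Oas1a shares 47.3% of its 76-base stretches with other loci. Oas2 was too low to test, at 0.158 to 0.482 CPM in KO IELp and 0.442 to 0.706 CPM in control IELp.

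Among the RNA helicases that sense viral RNA, 3 of 4 fell. Ifih1 encodes MDA5, the sensor of long double-stranded RNA, and had 4.75, 5.48 and 5.48 CPM in KO IELp, against 13.0, 12.5 and 9.65 CPM in control IELp (log2 fold change -1.14, SE 0.17, edgeR adjusted p = 0.000477). Its KO libraries all lay below its control libraries. Dhx58, which encodes the regulator LGP2, gave -0.64 (edgeR adjusted p = 0.00308) and Ddx60 averaged 11.6 ± 4.98 CPM in KO IELp and 23.8 ± 4.03 CPM in control IELp (SD, n = 3 each, edgeR adjusted p = 0.00897). Ddx58, which encodes RIG-I, did not pass, with 121, 130.0 and 126 CPM in KO IELp, against 153, 142 and 134 CPM in control IELp (log2 fold change -0.16, SE 0.07, edgeR adjusted p = 0.138).

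Enzymes that act on nucleotides or RNA fell with them. Cmpk2, a mitochondrial nucleotide kinase, had 8.19, 13.1 and 17.5 CPM in KO IELp, against 32.4, 30.7 and 23.3 CPM in control IELp (log2 fold change -1.12, SE 0.21, edgeR adjusted p = 0.00194). Rsad2 encodes viperin, which makes a chain-terminating nucleotide, and had 2.38, 3.61 and 4.32 CPM in KO IELp, against 11.5, 9.76 and 5.97 CPM in control IELp (log2 fold change -1.37, SE 0.26, edgeR adjusted p = 0.00278). KO and control libraries did not overlap in either gene. Cmpk2 and Rsad2 are neighbours on chromosome 12, where Rsad2 covers 26442746 to 26456452 and Cmpk2 covers 26469204 to 26479837 (mm10). Log2 fold changes were -1.14 for the GTPase gene Mx1, -0.89 for the exonuclease gene Isg20 and -0.35 for the GTPase gene Ifi47, and all 3 fell. Mx2 gave -1.11 (edgeR adjusted p = 0.191) and Samhd1, a dNTP hydrolase, -0.18 (edgeR adjusted p = 0.0646), and neither passed.

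Usp18 and Isg15 fell among the genes of the ISG15 system. Usp18, which removes ISG15 from proteins and also binds IFNAR2 to damp the signal, had 16.0, 14.0 and 16.7 CPM in KO IELp, against 31.7, 30.3 and 21.7 CPM in control IELp (log2 fold change -0.82, SE 0.15, edgeR adjusted p = 0.00149). No KO library reached a control library. Isg15, the ubiquitin-like modifier, gave -0.64 (edgeR adjusted p = 0.0246), while the ligase genes Herc6 and Trim25 did not pass, at -0.37 (edgeR adjusted p = 0.0611) and -0.02 (edgeR adjusted p = 0.929).

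Of the remaining members, Ifi27l2a had the smallest adjusted p of the 43 tested. Ifi27l2a, a small interferon-induced membrane protein, had 18.5, 16.1 and 16.9 CPM in KO IELp, against 39.2, 41.5 and 48.8 CPM in control IELp (log2 fold change -1.31, SE 0.11, edgeR adjusted p = 2.07e-06). Phf11b had 40.4, 38.6 and 42.8 CPM in KO IELp, against 65.1, 65.9 and 67.4 CPM in control IELp (log2 fold change -0.68, SE 0.08, edgeR adjusted p = 6.02e-05). This gene shares 26.2% of its 76-base stretches with its relatives. Both genes were lower in every KO library than in any control library. Lgals3bp, a secreted galectin-binding glycoprotein, had 118, 117 and 127 CPM in KO IELp, against 179, 189.8 and 166 CPM in control IELp (log2 fold change -0.54, SE 0.07, edgeR adjusted p = 6.34e-05). Trim30a, a TRIM protein known in mice to damp Toll-like receptor signals, had 77.4, 71.9 and 79.0 CPM in KO IELp, against 114, 103 and 103 CPM in control IELp (log2 fold change -0.46, SE 0.07, edgeR adjusted p = 0.000711). These too did not overlap between genotypes. Bst2 (tetherin), Rtp4, Xaf1 and Shisa5 also fell, with log2 fold changes of -0.59, -0.52, -0.43 and -0.13.

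Of the 27 calls, 19 held in all 13 alternative fits and 8 did not. Calls were lost for Ifit3b, Oas1a, Oasl1 and Xaf1 without control IELp replicate 1, for Ddx60, Ifit3b, Isg15, Mx1, Oas1a, Oasl1 and Shisa5 without control IELp replicate 2, and for Mx1 without control IELp replicate 3. Without KO IELp replicate 1 they were lost for Ifit3b, Isg15, Mx1, Oas1a, Oasl1, Shisa5 and Xaf1, without replicate 2 for Isg15, Mx1, Oasl1, Shisa5 and Xaf1, and without replicate 3 for Oas1a, Oasl1 and Shisa5. With all libraries kept, DESeq2 lost Ddx60 and edgeR with no filter on low counts lost Shisa5. In 1 fit of all 12 libraries Oasl1 and Shisa5 were lost, and with a replicate block Oas1a and Shisa5. The highest adjusted p among these fits was 0.0648 for Ifit3b, 0.108 for Isg15, 0.105 for Oas1a, 0.163 for Oasl1, 0.0989 for Mx1, 0.0636 for Ddx60, 0.098 for Xaf1 and 0.114 for Shisa5. None of the 27 changed sign. Some members not called in the main fit were called lower in an alternative. Samhd1 was called in both limma fits and without control IELp replicate 3. Herc6 was called in limma on log2(FPM + 0.1) and in 1 fit of all 12 libraries. Adar was called with no filter on low counts and without control IELp replicate 3, Mx2 with no filter, and Trafd1 without control IELp replicate 3.

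Promoter sequence was described beside these calls, using the RefSeq promoter table (build GRCm38.p6, 250 bases before to 50 after each start). Of the 46 members, 35 were in the table. The motif GAAA, then NN (any 2 bases), then GAAA, a core form of the interferon-stimulated response element, was searched on both strands, with overlapping matches allowed. It was present in 17 of the 35 (48.6%, 95% Wilson interval 33.0 to 64.4) and in 3.99% of all 27025 genes in the table, or 3.44% of promoters. It was found in 14 of 21 members that fell in KO IELp and in 2 of 12 that were tested and not called, which were Ddx58 and Stat2. A match describes letters in the window and is not evidence of binding.

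The promoters of 6 members are given because they set members that fell (Eif2ak2, Phf11b, Ifit1 and Ifih1) beside members that did not pass (Stat2 and Trafd1). The 4 that fell were chosen among members holding the motif. Members that fell and hold no match in the table's windows include Lgals3bp, Isg20, Oasl1, Oasl2, Ifi47, Xaf1 and Cmpk2. Capitals mark the motif on either strand. The windows are chr17:78882523-78882822 on the minus strand for Eif2ak2, chr14:59341281-59341580 on the minus strand for Phf11b, chr19:34640639-34640938 on the plus strand for Ifit1, chr2:62646206-62646505 on the minus strand for Ifih1, chr10:128270248-128270547 on the plus strand for Stat2 and chr5:121385566-121385865 on the minus strand for Trafd1, each read 5′ to 3′ along the gene. The Trafd1 sequence, 1 of 2 in the table for that gene, holds no match.
Eif2ak2: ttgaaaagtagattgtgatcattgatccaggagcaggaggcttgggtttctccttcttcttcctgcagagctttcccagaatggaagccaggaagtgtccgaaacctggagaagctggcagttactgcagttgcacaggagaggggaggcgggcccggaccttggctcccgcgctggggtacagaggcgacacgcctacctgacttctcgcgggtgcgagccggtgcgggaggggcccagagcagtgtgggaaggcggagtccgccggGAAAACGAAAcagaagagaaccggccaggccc
Phf11b: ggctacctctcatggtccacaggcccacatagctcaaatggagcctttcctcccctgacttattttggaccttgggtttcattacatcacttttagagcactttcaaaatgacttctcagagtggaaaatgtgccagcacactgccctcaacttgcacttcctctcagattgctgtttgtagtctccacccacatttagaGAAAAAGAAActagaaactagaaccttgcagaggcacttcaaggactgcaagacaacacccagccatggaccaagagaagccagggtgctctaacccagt
Ifit1: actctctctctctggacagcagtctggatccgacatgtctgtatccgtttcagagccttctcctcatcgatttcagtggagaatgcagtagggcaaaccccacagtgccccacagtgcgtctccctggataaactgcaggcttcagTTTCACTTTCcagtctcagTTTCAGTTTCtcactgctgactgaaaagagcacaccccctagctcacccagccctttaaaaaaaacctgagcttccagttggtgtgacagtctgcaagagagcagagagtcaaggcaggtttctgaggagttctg
Ifih1: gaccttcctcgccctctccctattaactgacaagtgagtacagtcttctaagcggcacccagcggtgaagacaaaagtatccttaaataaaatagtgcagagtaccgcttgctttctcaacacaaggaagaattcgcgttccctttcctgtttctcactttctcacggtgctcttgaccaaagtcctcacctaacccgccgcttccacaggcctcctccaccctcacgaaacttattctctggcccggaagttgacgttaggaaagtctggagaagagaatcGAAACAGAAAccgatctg
Stat2: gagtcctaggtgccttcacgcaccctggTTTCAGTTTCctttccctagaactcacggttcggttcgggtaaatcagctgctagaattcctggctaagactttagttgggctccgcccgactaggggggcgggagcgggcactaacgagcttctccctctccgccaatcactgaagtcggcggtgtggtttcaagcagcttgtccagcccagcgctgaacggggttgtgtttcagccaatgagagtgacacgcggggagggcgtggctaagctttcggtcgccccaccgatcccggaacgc
Trafd1: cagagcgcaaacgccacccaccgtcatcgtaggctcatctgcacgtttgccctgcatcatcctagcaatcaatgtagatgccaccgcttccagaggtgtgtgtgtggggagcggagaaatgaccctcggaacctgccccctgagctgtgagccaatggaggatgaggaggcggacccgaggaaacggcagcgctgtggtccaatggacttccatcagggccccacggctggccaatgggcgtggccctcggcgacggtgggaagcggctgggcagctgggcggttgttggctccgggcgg

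**Figure D2:**
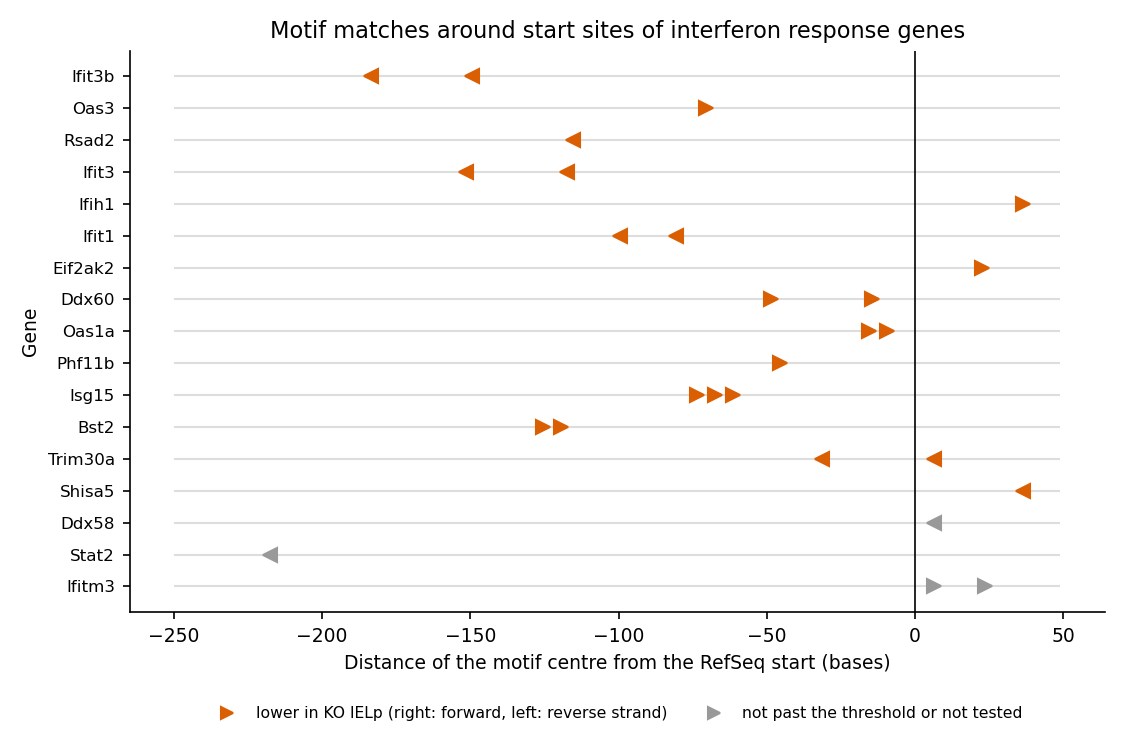
Position of each match to GAAA, NN, GAAA in the promoters of the members that hold it, in bases from the transcription start, coloured by the call in KO IELp against control IELp. Members with several promoters in the table show matches from each of them, and 14 of the 17 members fell.

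All 19 type I and type III interferon genes looked at had 0 counts in all 12 libraries, where 3 counts correspond to 0.15 to 0.223 CPM. Of 17 tested genes for interferon receptors and their signal, 4 fell and 2 rose. Irf7, an interferon-inducible transcription factor, had 57.0, 59.0 and 62.9 CPM in KO IELp, against 95.7, 94.6 and 79.9 CPM in control IELp (log2 fold change -0.57, SE 0.09, edgeR adjusted p = 0.000413). Others that fell were Ifngr2, a chain of the IFNγ receptor, at -0.61 (edgeR adjusted p = 0.00136), and the phosphatase gene Ptpn6, at -0.14 (edgeR adjusted p = 0.0305). The 2 that rose were the kinase gene Jak1, at 0.18 (edgeR adjusted p = 0.00806), and Ifngr1, at 0.22 (edgeR adjusted p = 0.0371). The receptor genes Ifnar1 and Ifnar2 did not pass, with log2 fold changes of -0.04 and -0.15, nor did Irf9, at -0.21 (edgeR adjusted p = 0.0779). Stat2 itself did not pass, at -0.02 (edgeR adjusted p = 0.939).

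Other gene groups moved in KO IELp too, where 6.58% of all genes tested were lower and 6.48% were higher. Of 10 tested genes of late thymocyte maturation 7 fell and 0 rose, with a median log2 fold change of -0.93. Examples are Ms4a4b at -1.47 (edgeR adjusted p = 4.93e-08) and H2-Q6, itself an MHC class I gene, at -1.62 (edgeR adjusted p = 4.05e-07). Others on that list differed less. Klf2 averaged 302 CPM in KO IELp and 374 CPM in control IELp, S1pr1 237 and 276 CPM, and Il7r 57.7 and 63.3 CPM. Of 11 genes of MHC class I and peptide loading 8 fell and 0 rose, and H2-K1, whose product was part of the sort, is on that list. Of 14 IFNγ-induced GTPase genes 7 fell and 1 rose, Gbp8. Plasmacytoid dendritic cell markers summed to 101 to 103 CPM in KO IELp and 95.7 to 111 CPM in control IELp, with Klk1 at 0 in both and Siglech at 0 in KO IELp. Pacsin1 carried that sum, at 79.7 CPM in KO IELp and 79.4 CPM in control IELp on average. Myeloid markers summed to 30.2 to 36.3 CPM in KO IELp and 26.6 to 33.7 CPM in control IELp, with Adgre1, Cd14 and Mpeg1 at 0 in both. For both lists the sums overlapped between genotypes. The myeloid sum was carried by Csf1r, at 21.1 to 23.8 CPM in KO IELp and 17.3 to 22.3 CPM in control IELp. Of the 13 myeloid markers 10 were too low to test. Of the 3 tested 0 were called, and 2 had a positive and 1 a negative fold change. Lyz2, C1qc and Itgam, picked from the list, averaged less in KO IELp. Lyz2 had 0.0703 CPM in KO IELp and 0.438 CPM in control IELp, C1qc 0.0948 and 0.525 CPM, and Itgam 0.0703 and 0.631 CPM. These KO IELp means lay below 3 counts, or 0.15 to 0.223 CPM. The part of such cells in these results was not tested.

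**Figure D3:**
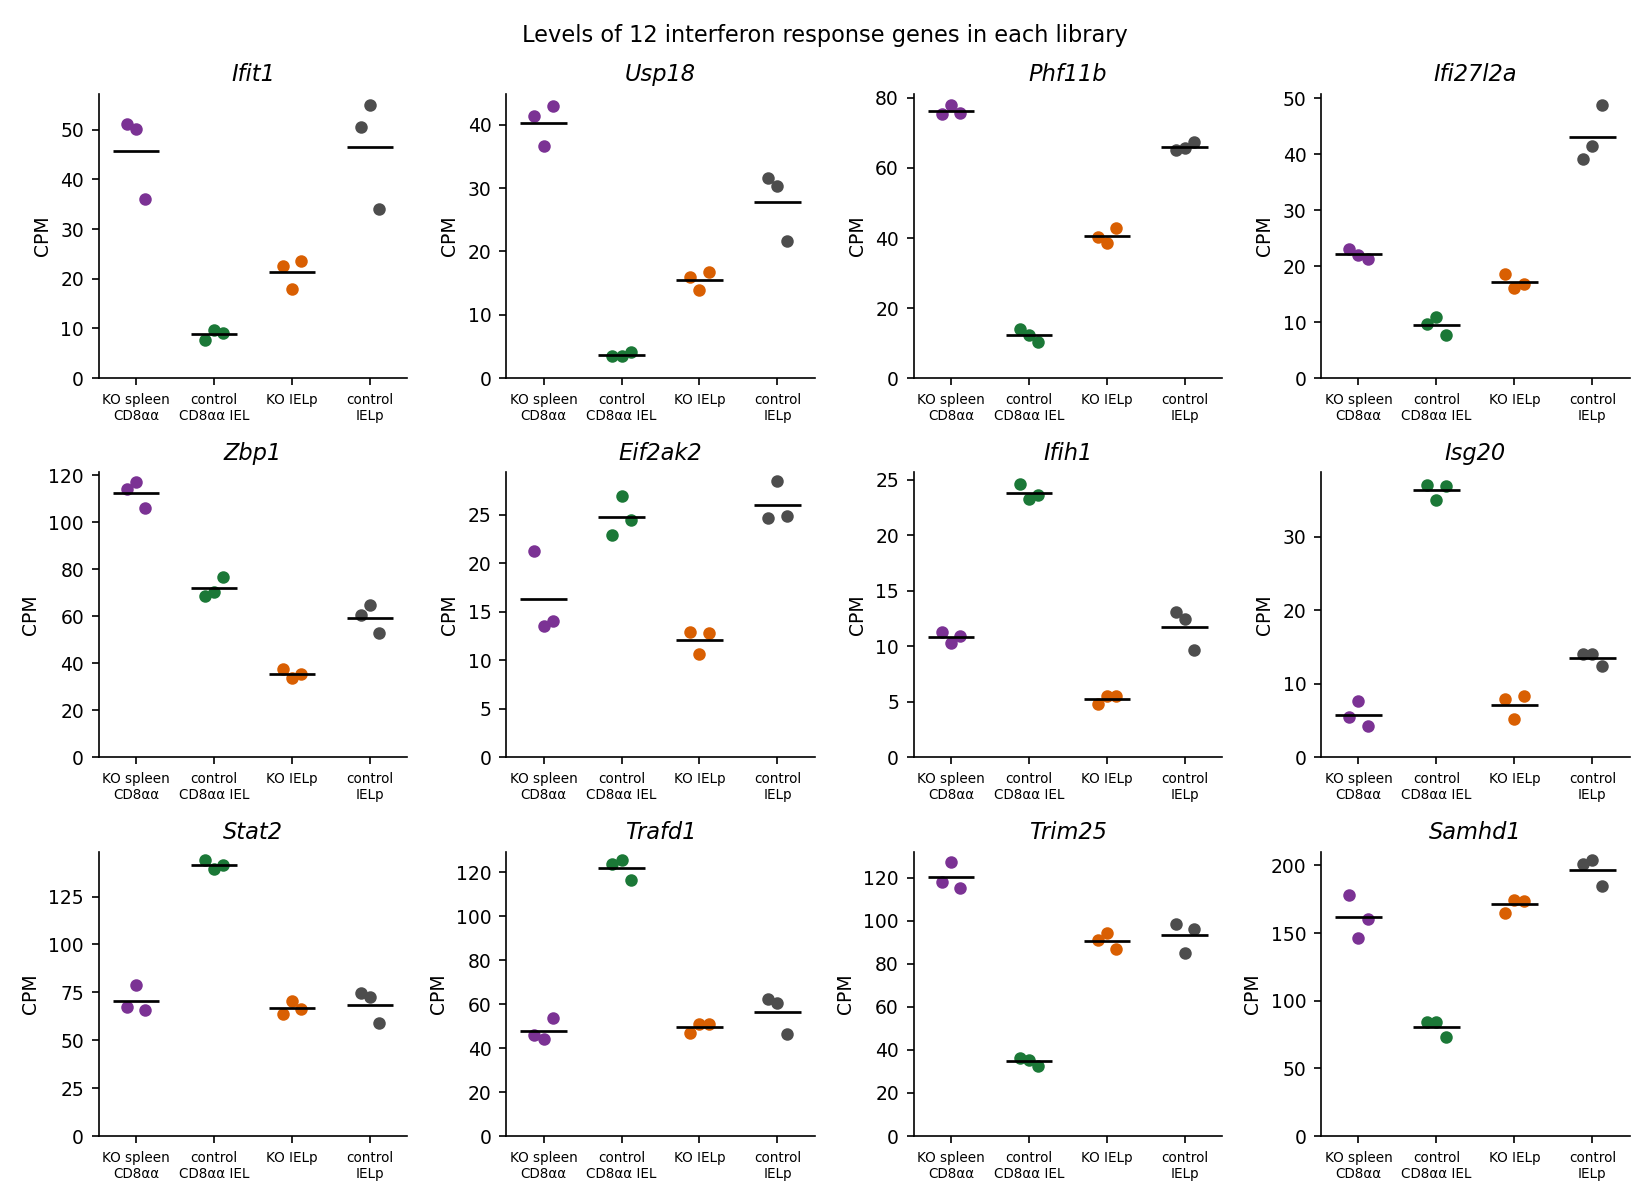
CPM of named members in each of the 12 libraries, grouped as KO spleen cells, control IELs, KO IELp and control IELp (3 libraries each), with group means. Ifit1 was lowest in control IELs, and Stat2 and Trafd1 were highest there.

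Control IELs were set against control IELp to show how the members differ between the gut CD8αα cells and the thymic precursors in the same genotype. The IELp libraries were registered apart from the CD8αα libraries, so the library set differed too. The part of library set in the calls was not tested. Of 42 members tested, 15 were higher and 17 were lower in control IELs, against 31.9% and 32.9% of all 14878 genes tested (64.8% in either direction). These shares, 35.7% and 40.5%, lie near those of all genes. The median log2 fold change was 0.09 for the members and -0.01 for all genes. With limma on log2 of the authors' FPM values + 1 the median of all genes moved to -0.21 and the higher calls among all genes to 34.7% from 49.2%, and 12 members were then higher and 20 lower. Calls for Dhx58, Dtx3l and Shisa5 were lost in that scaling, and no called member changed sign. Dtx3l also lost its call without control IELp replicate 2 or 3 or control IEL replicate 2 (adjusted p of 0.0561 to 0.0747 in edgeR).

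Of the 16 members tested and not called in KO against control IELp, 9 were called in control IELs against control IELp. Stage, tissue and library set differ there, and genotype does not. Of all genes tested in that comparison 64.8% were called, so the share is near the background. A p that misses the threshold in IELp does not show equal levels there. Higher were Stat2, Trafd1, Ddx58, Parp14, Dtx3l and Ifi35, and lower were Trim25, Samhd1 and Mx2. Stat2, the transducer of the type I signal, had 144, 139 and 142 CPM in control IELs, against 74.5, 72.4 and 59.0 CPM in control IELp (log2 fold change 1.28, SE 0.09, edgeR adjusted p = 5.27e-07). In KO IELp it had 63.7, 70.7 and 66.1 CPM, and the genotypes overlapped (log2 fold change -0.02, SE 0.09, edgeR adjusted p = 0.939). The fold change of Stat2 between IELp genotypes took a positive sign without control IELp replicate 1 or 2 or KO IELp replicate 1. Trafd1, a negative regulator of innate signals, had 124, 125 and 117 CPM in control IELs, against 62.4, 60.7 and 46.5 CPM in control IELp (log2 fold change 1.34, SE 0.11, edgeR adjusted p = 1.32e-06). KO IELp had 46.9, 51.1 and 50.8 CPM of it. Both genes stood higher in every control IEL library than in any other. Against control IELp alone, 24.6% of all genes tested were higher without overlap.

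Ddx58 had 276, 283 and 274 CPM in control IELs, against 153, 142 and 134 CPM in control IELp (log2 fold change 1.19, SE 0.07, edgeR adjusted p = 8.47e-08). Parp14, a mono-ADP-ribosyltransferase, had 98.6, 129.7 and 61.8 CPM in control IELs, against 71.3, 63.3 and 45.8 CPM in control IELp (log2 fold change 0.91, SE 0.24, edgeR adjusted p = 0.00574). Its groups overlapped. On the lower side, Trim25, a ubiquitin ligase in the RIG-I pathway, had 36.4, 35.2 and 32.5 CPM in control IELs, against 98.5, 84.8 and 96.3 CPM in control IELp (log2 fold change -1.19, SE 0.09, edgeR adjusted p = 9.57e-07). Its KO IELp libraries had 91.2, 94.1 and 87.0 CPM. Samhd1 had 84.2, 84.0 and 73.0 CPM in control IELs, against 201, 204 and 185 CPM in control IELp (log2 fold change -1.06, SE 0.08, edgeR adjusted p = 8.37e-07). In KO IELp the values were 165, 175 and 174 CPM, each below every control IELp library, as in 16.8% of all genes tested between the IELp genotypes. Neither gene overlapped between control IELs and control IELp, and 46.3% of all genes tested were lower in control IELs in this way. Parp9, Herc6, Adar, Ifit2, Sp100 and Ifi27 passed in neither comparison. Ifit2 gave an edgeR adjusted p of 0.0556 in control IELs against control IELp, and was called lower there in some alternative fits. All 6 were higher in KO spleen cells than in KO IELp, as were 22.6% of all genes tested in that comparison. Parp9 and Dtx3l overlap on opposite strands, as do parts of Ifi35 and Adar with other genes, and the strand setting is not given, so their counts may include reads from a neighbour.

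The members that fell in KO IELp included some that were lower and some that were higher in control IELs. Lower in control IELs were Ifit1 (-2.17 on the log2 scale), Usp18 (-2.69), Phf11b (-2.21) and Cmpk2 (-2.57), whereas Ifih1 (1.25), Zbp1 (0.51) and Lgals3bp (0.55) were higher. Eif2ak2 gave 0.16 (edgeR adjusted p = 0.258) and did not pass. Both comparisons use the control IELp libraries. Gut epithelial markers summed to 517 to 691 CPM in control IELs and 67.0 to 75.3 CPM in control IELp, with Muc2 at 0 in both. Cdh1 at 397 CPM and Epcam at 146 CPM on average, adhesion molecules, carried the sum in control IELs. Krt8, Krt19 and Fabp1 were highest in control IEL replicate 3, at 22.6, 22.0 and 12.7 CPM, and at most 2.33 CPM in the other control IEL libraries. Myeloid markers summed to 705 to 739 CPM in control IELs and 26.6 to 33.7 CPM in control IELp, with 4 of 13 (Adgre1, C1qa, C1qb and Cd14) at 0 in control IELs. Tyrobp at 358 CPM and Itgax at 305 CPM on average carried that sum, while Lyz2 averaged 0.0724 CPM in control IELs. Their part in these results was not tested.

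KO spleen cells were set against control IELs, with genotype and tissue differing together. Of 43 members tested 29 were higher and 7 were lower in KO spleen cells, against 29.1% and 29.2% of all 14875 genes tested (58.2% in either direction), and the median log2 fold change was 0.66 against 0.00. Mx1, a gene of the Mx GTPase family, had 14.1, 17.2 and 12.7 CPM in KO spleen cells, against 0.307, 0.579 and 0.652 CPM in control IELs (log2 fold change 4.69, SE 0.28, edgeR adjusted p = 3.17e-07). Ifit3b had 5.36, 5.77 and 6.03 CPM in KO spleen cells, against 0.184, 0.129 and 0.380 CPM in control IELs (log2 fold change 4.43, SE 0.38, edgeR adjusted p = 4.75e-06). Its relative Ifit3 had 43.4, 37.5 and 29.6 CPM in KO spleen cells, against 1.35, 1.61 and 3.80 CPM in control IELs (log2 fold change 3.88, SE 0.31, edgeR adjusted p = 3.07e-06). Oasl2 had 9.63, 8.79 and 10.6 CPM in KO spleen cells, against 0.799, 0.836 and 0.978 CPM in control IELs (log2 fold change 3.33, SE 0.23, edgeR adjusted p = 1.01e-06). In these 4 genes every KO spleen library was above every control IEL library, as in 39.2% of all genes tested. Lower in KO spleen cells were Isg20, Trafd1, Ifih1 and Stat2. Isg20, an exonuclease, had 5.46, 7.68 and 4.24 CPM in KO spleen cells, against 37.1, 35.0 and 36.9 CPM in control IELs (log2 fold change -2.75, SE 0.18, edgeR adjusted p = 7.96e-07). Ifih1 had 11.3, 10.3 and 10.9 CPM in KO spleen cells, against 24.6, 23.2 and 23.6 CPM in control IELs (log2 fold change -1.26, SE 0.11, edgeR adjusted p = 7.75e-06). Neither overlapped between these groups. Trafd1 had 46.1, 44.3 and 53.7 CPM in KO spleen cells, against 124, 125 and 117 CPM in control IELs (log2 fold change -1.47), and Stat2 had 67.3, 78.6 and 66.0 CPM in KO spleen cells, against 144, 139 and 142 CPM in control IELs (log2 fold change -1.12). Both were lower in every KO spleen library than in any control IEL library. Of all genes tested, 26.9% were lower without overlap in this comparison.

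Of the 27 members that fell in KO IELp, 21 were higher, 4 lower and 2 not called in KO spleen cells against control IELs, comparisons that share no library. That is 77.8% of the members that fell in IELp and 72.4% of the 29 that were higher in KO spleen cells. Of all 43 members tested in the spleen comparison 67.4% were higher in KO spleen cells. Over all genes tested in both comparisons, 33.6% of the 914 that fell in KO IELp were higher in KO spleen cells. The call for Mx2 was lost without KO spleen replicate 1 (edgeR adjusted p = 0.091). That for Adar was lost without KO spleen replicate 2 or any 1 of the control IEL replicates (adjusted p up to 0.121 in edgeR), and that for Ddx58 in limma on FPM (adjusted p up to 0.0601). Ifitm3, higher in KO spleen cells, could not be tested without KO spleen replicate 1 or 2, since it then failed the filter on low counts. B cell markers summed to 182 to 216 CPM in KO spleen cells, with 0 of 8 at 0, and to 40.3 to 67.8 CPM in control IELs, with Ms4a1, Pax5, Ebf1 and Fcrla among those at 0. Gut epithelial markers summed to 13.9 to 16.9 CPM in KO spleen cells and 517 to 691 CPM in control IELs, where Cdh1 and Epcam carried the sum. Their part in the result was not tested.

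Against KO IELp, with the genotype the same, KO spleen cells had 38 members higher and 0 lower of 44 tested. Stage, tissue and library set all differed here, and the part of library set was not tested. Among all 14880 genes tested, 22.6% were higher and 22.4% lower, 45% in all. At an unadjusted p under 0.05 edgeR had 39 higher and 0 lower, and DESeq2 had 38 higher and 0 lower. The median log2 fold change of the members was 1.07 against 0.00. With limma on log2 of FPM + 1 the higher calls among all genes were 35.7% against 50.3%, and 37 members were higher and 0 lower. Zbp1 had 114, 117 and 106 CPM in KO spleen cells, against 37.3, 33.6 and 35.2 CPM in KO IELp (log2 fold change 1.78, SE 0.08, edgeR adjusted p = 8.25e-10). Sp100, a nuclear body protein, had 939, 954 and 922 CPM in KO spleen cells, against 494, 493 and 508 CPM in KO IELp (log2 fold change 1.02, SE 0.04, edgeR adjusted p = 1.58e-10). Neither overlapped, and 20.4% of all genes tested were higher in KO spleen cells without overlap. Not called were Stat2, Trafd1, Samhd1, Mx2, Isg20 and Ifi44. Samhd1 had 179, 147 and 160.4 CPM in KO spleen cells and 165, 175 and 174 CPM in KO IELp, and these overlapped. B cell markers summed to 182 to 216 CPM in KO spleen cells and 17.2 to 21.2 CPM in KO IELp, with Ms4a1 and Fcrla among those at 0 in KO IELp. Myeloid markers summed to 154 to 187 CPM in KO spleen cells and 30.2 to 36.3 CPM in KO IELp, with Adgre1 at 1.34 to 3.23 CPM in KO spleen cells and at 0 in KO IELp. Their part in these counts was not tested. Eif2ak2 lost its call without KO IELp replicate 1, 2 or 3, without KO spleen replicate 1 and in limma on FPM (adjusted p up to 0.142), and Ifitm3 again failed the filter without KO spleen replicate 1 or 2.

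**Figure D4:**
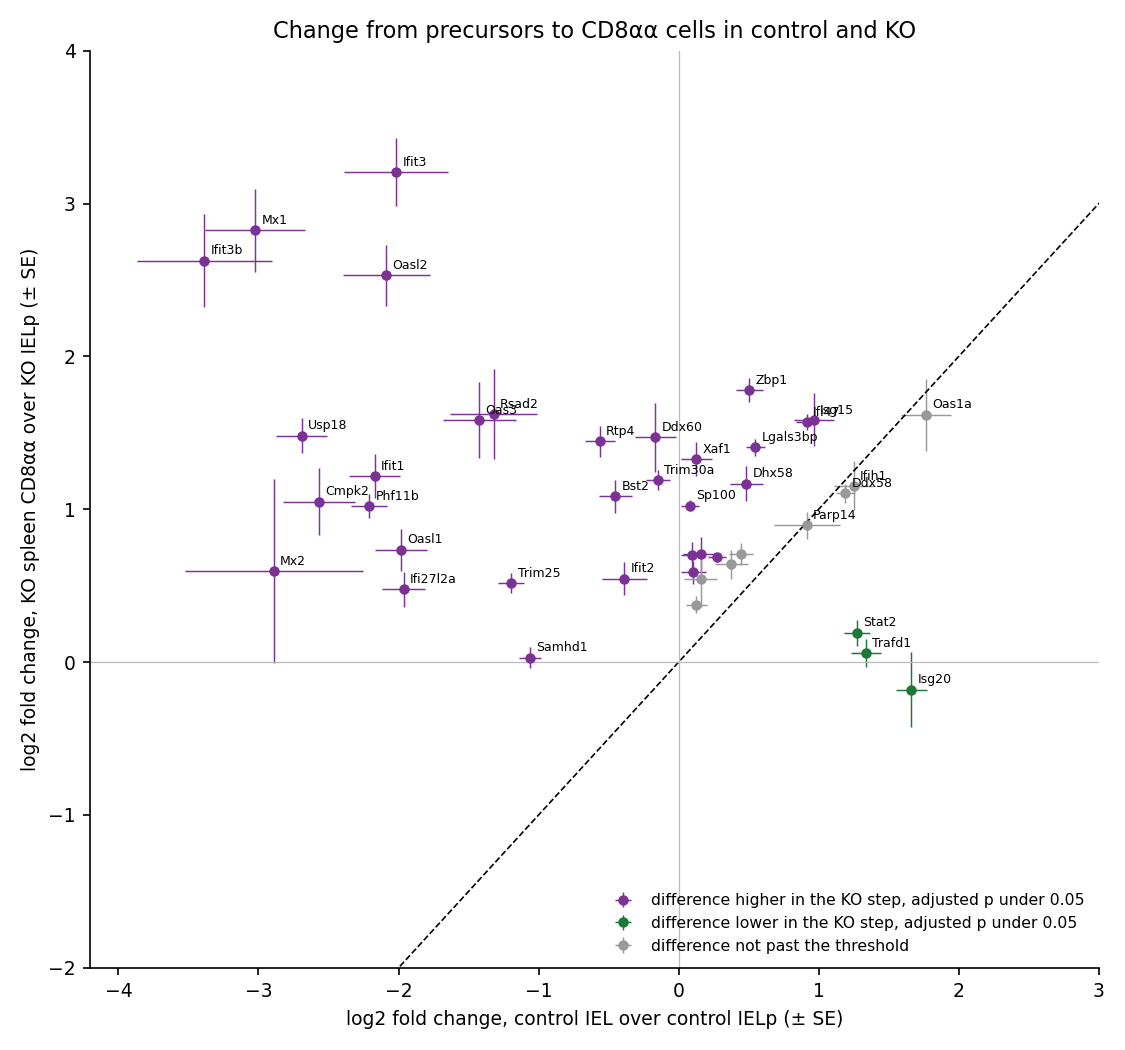
Log2 fold change from IELp to CD8αα cells for each member, with KO spleen cells over KO IELp on the vertical axis and control IELs over control IELp on the horizontal axis (edgeR, 3 libraries per group). Most members lie above 0 on the vertical axis, and they spread to both sides of 0 on the horizontal axis, with a crowded cluster near the centre left unlabelled. Points on the dashed line would have changed equally in both steps, and colours give the test of the difference, positive in 33 members and negative in 3.

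The step from IELp to CD8αα cells was then compared between KO cells (to spleen) and control cells (to gut) in 1 fit of all 12 libraries. The difference passed the threshold as positive in 33 of 44 tested members and as negative in 3, against 24.2% and 22.5% of all genes tested (46.7% in either direction), with a median of 1.12 against 0.02. In this contrast genotype and tissue cannot be told apart. It was largest for Ifit3b at 5.99, Mx1 at 5.83 and Ifit3 at 5.20, of the members tested (edgeR adjusted p = 2.83e-07, 3.15e-08 and 1.46e-07). In control IEL libraries Ifit3b had 3, 2 and 7 counts and Mx1 had 5, 9 and 12. Over all fits the difference ran from 3.46 to 6.57 for Ifit3b, 4.32 to 6.25 for Mx1 and 4.78 to 5.83 for Ifit3. Their order thus depended on the fit, and Ifit3 and Ifit3b share sequence. The difference was negative for Isg20 (-1.86), Trafd1 (-1.30) and Stat2 (-1.11). Ifih1 did not pass at -0.12 (edgeR adjusted p = 0.653), nor did Ddx58 at -0.11 (edgeR adjusted p = 0.367) or Oas1a at -0.17 (edgeR adjusted p = 0.684). The call for Isg15 was lost without control IELp replicate 2 or 3, KO IELp replicate 1 or 2, control IEL replicate 1 or 3 and KO spleen replicate 1 or 2, each left out alone, with no filter and with the replicate block (adjusted p up to 0.108). That for Oas2 was lost without control IELp replicate 2, KO IELp replicate 1 or 3, control IEL replicate 1 or 3 and KO spleen replicate 2 (adjusted p up to 0.0719), and that for Herc6 with no filter on low counts (adjusted p = 0.0544). Without control IEL replicate 3, 33 members were higher and 3 lower.

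**Figure D5:**
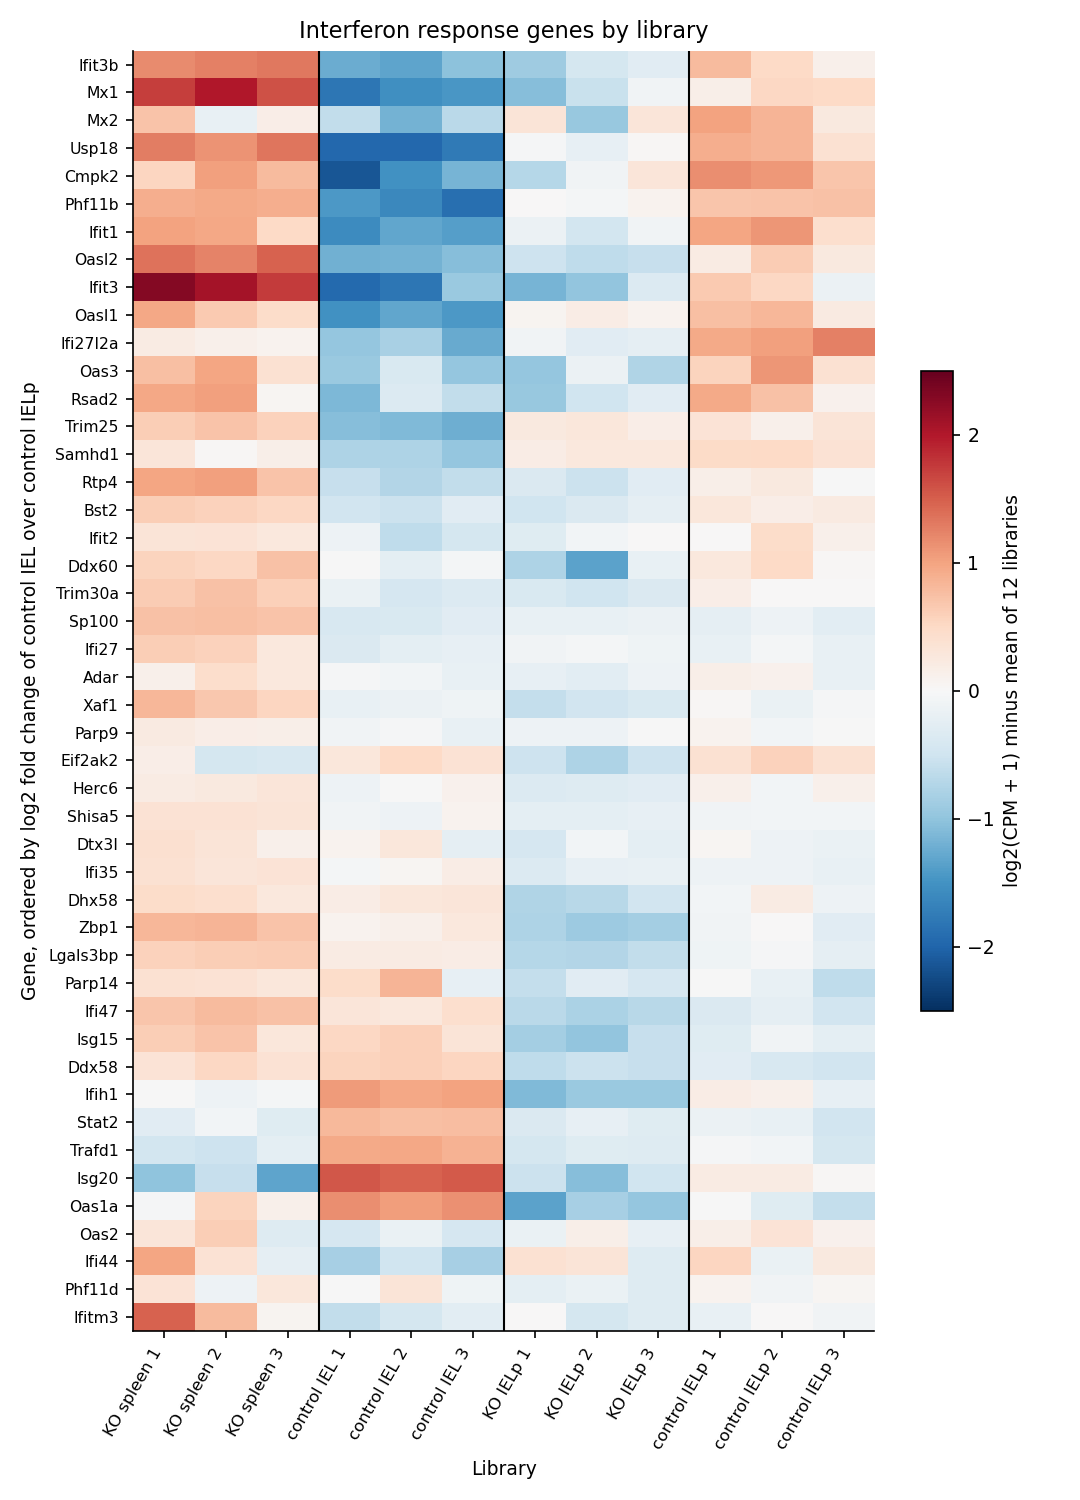
Log2(CPM + 1) of the 46 members in the 12 libraries, minus each gene's mean over them, with columns ordered as KO spleen cells, control IELs, KO IELp and control IELp. KO spleen libraries are high for most members, and the mean CPM was highest there in 33 of 46, a count not made over all genes.

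Across the 4 groups, KO spleen cells had the highest mean in 33 of 46 members, control IELs in 7, control IELp in 6 and KO IELp in 0. The same counts were not made over all genes, so these have no background to be read against. The lowest mean was in control IELs for 24 members, in KO IELp for 20, in KO spleen cells for 2 and in control IELp for 0. These ranks use CPM without the TMM scaling factors of the edgeR fits. With those factors Ifi27, Parp9 and Sp100, lowest in control IELs by CPM, gave log2 fold changes of 0.10, 0.13 and 0.08 against control IELp. None of these was called. Averaged over the members, log2(CPM + 1) was 5.34, 5.31 and 5.14 in KO spleen libraries and 4.38, 4.45 and 4.43 in control IEL libraries. Too low to test in IELp, beside Oas2, were Ifitm3, with 0.596 to 3.21 CPM in KO spleen cells and 0 to 0.272 CPM in control IELs, and Phf11d, with 0.159 to 0.602 CPM in KO spleen cells and 0.163 to 0.579 CPM in control IELs. Ifi44 had 0.521 to 2.51 CPM in KO spleen cells and 0 to 0.257 CPM in control IELs.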

How the data were processed

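Per the labels' protocols, RNA from 40000 sorted cells per sample became cDNA with SMARTer Ultra Low Input reagents and libraries with Nextera XT, which were sequenced as 76-base pairs. The submitters' processing notes name bcl2fastq 2.17, Trimmomatic, STAR, HTSeq, DESeq2 and the build mm10. Neither the gene annotation nor the strand setting is given in the sources used here. The authors deposited raw counts per gene symbol, with 5 summary rows that held 58.8 to 61.02% of reads and were left out, and a table named FPM, which equals CPM of the gene counts.

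Each pair of groups was tested in edgeR 4.0.16 (R 4.3.3) on the deposited counts of its 6 libraries: filterByExpr, TMM factors, the quasi-likelihood test, 2-sided, Benjamini-Hochberg adjustment over all genes tested, threshold 0.05. SEs are the log2 fold change over the square root of F. CPM carry no TMM factors. The difference of steps was fitted on all 12 libraries. The fits were run on simulated counts in which few genes changed, unlike these data. That run does not show how the scaling behaves where many genes differ. Alternatives were other size factors, DESeq2 1.42.0, no filter, a replicate block, 1 fit of all libraries, limma 3.58.1 on log2(FPM + 1) and log2(FPM + 0.1), and leaving out each library. Floors of 3 counts cover counting error only. Gene coordinates are from GENCODE release M21.

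Values in every library are given for the 12 members with the smallest adjusted p among those that fell in KO IELp, any that rose, the 6 not called there with the largest change in control IELs at 5 or more CPM, and the 4 highest and 4 lowest in KO spleen cells against control IELs at 5 or more CPM; other members appear by fold change or range. Zbp1, Samhd1 and Sp100 in the spleen step were picked as examples after their values were seen. The members and gene lists were chosen with earlier results of these data known. Values of some genes on these lists are not reported here.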

Additional observations from a re-analysis of the deposited data

Results flagged for a closer look

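For 36 members the step from IELp to CD8αα cells differed between KO cells (to spleen) and control cells (to gut) in the test of the difference. Of all genes tested there, 46.7% differed in either direction. Values are on the log2 scale, from edgeR over all 12 libraries. Genotype and tissue cannot be told apart in this contrast. Among RNA-binding and OAS family genes the difference was 3.36 for Ifit1, 0.91 for Ifit2, 5.20 for Ifit3, 5.99 for Ifit3b, 1.25 for Zbp1, 0.46 for Adar, 4.04 for Oas2, 2.98 for Oas3, 2.69 for Oasl1 and 4.60 for Oasl2. Among nucleotide and RNA enzymes, GTPases and helicases it was 5.83 for Mx1, 3.46 for Mx2, 2.92 for Rsad2, 3.59 for Cmpk2, -1.86 for Isg20, 0.63 for Ifi47, 1.07 for Samhd1, 0.66 for Dhx58 and 1.62 for Ddx60. In the ISG15 system and signal transduction it was 0.60 for Isg15, 4.15 for Usp18, 0.53 for Herc6, 1.69 for Trim25 and -1.11 for Stat2. For the other members it was 2.42 for Ifi27l2a, 0.58 for Ifi27, 4.08 for Ifi44, 1.51 for Bst2, 1.98 for Rtp4, 0.39 for Shisa5, 1.18 for Xaf1, 1.31 for Trim30a, 3.21 for Phf11b, 0.83 for Lgals3bp, -1.30 for Trafd1 and 0.92 for Sp100. The values of Isg20, Stat2 and Trafd1 are negative, so their step was lower in KO cells. Oas2 and Ifi44 had low counts in each group, and Ifit3b had 3, 2 and 7 counts in control IEL libraries.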

How the results depend on the processing

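Genes called in KO against control IELp numbered 1911, and 1239 to 1810 when 1 library was left out, namely 1270.0 without control IELp replicate 2 and, for KO IELp, 1239 without replicate 2 and 1265 without replicate 3. Members lower there numbered 20 to 29 without 1 library, and 0 were higher in each. Without 1 library, members higher and lower numbered 14 to 15 and 17 to 19 in control IELs against control IELp, 27 to 31 and 7 to 8 in KO spleen cells against control IELs, 36 to 39 and 0 against KO IELp, and 31 to 35 and 3 in the difference of steps. Of members not called in IELp, the log2 fold change crossed 0 for Ifi44 (-0.45 to 0.25 with 1 library left out), Stat2 (-0.114 to 0.0472) and Trim25 (-0.0802 to 0.0284). It was 0.24 for Ifi44, 0.0472 for Stat2 and 0.0284 for Trim25 without control IELp replicate 1, 0.02 for Stat2 without control IELp replicate 2 or KO IELp replicate 1, 0.01 for Trim25 without control IELp replicate 3, and 0.25 for Ifi44 and 0.02 for Trim25 without KO IELp replicate 3. The cause was not tested. The promoter motif was in 25.7% of matched members and 2.06% of all genes on the given strand only, and in 34.3% and 3.46% within the bases before the start. Replicate numbers did not pair the IELp libraries (correlations of same-numbered deviations -0.124, 0.0244 and -0.0752), and with the replicate block 25 members fell, without Oas1a and Shisa5. Oas2, Ifitm3 and Phf11d failed the filter on low counts in IELp.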
